A study of Mus musculus with 7 samples.

Results

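The Nedd9 locus was taken as the mouse gene Nedd9 with 100 kb on each side, and it held 50 of the 113820 regions in which ATAC-seq insertions were counted. ATAC-seq uses a transposase that cuts and tags open chromatin, so the insertions in a region measure its accessibility. The locus was selected on measured values. A region upstream of the gene, at chr13:41513080-41513687 (GRCm38), had the highest value of lung IL-4+ minus lymph node (LN) IL-4+ CD4+ T cells among all 113820 regions. It is called the lead region here. Because that comparison chose the locus, its values at the locus are given as a description with no p-value. The lead region carries no p-value in any comparison.

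The libraries were made from C57BL/6 reporter mice infected with 500 L3 larvae of the nematode Nippostrongylus brasiliensis, and CD4+ T cells were sorted 8 days after infection. IL-4+ cells were the GFP+ cells of the IL-4-4get GFP reporter mouse, from the mediastinal LN (n = 2) or the lung (n = 3), and IFNγ+ cells were the YFP+ cells of the IFN-gamma-Great YFP reporter mouse, from the lung (n = 2). Every group was infected, none was reporter-negative, and the sources used here give no age or sex and do not say whether LN and lung cells came from the same animals. A reporter marks cells in which the cytokine gene is active and does not measure secreted cytokine. The 2 lung populations also differed in their reporter line, and cytokine and line cannot be told apart. Lung IFNγ+ and LN IL-4+ cells differed in tissue, cytokine and reporter line at once, and these cannot be told apart either. The study describes its replicates as mice of a single experiment, so the p-values measure the spread between libraries within that experiment.

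Nedd9, also called HEF1 or CAS-L, is a scaffold protein of the Cas family that has no enzyme activity of its own. Focal adhesion kinases and Src family kinases phosphorylate it after integrins or the T cell receptor are engaged, and adaptors such as Crk then bind to it and link it to small GTPases that control adhesion and migration. In lymphocytes it is known for its part in integrin-dependent movement, and in dividing cells it also binds the mitotic kinase Aurora A.

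The gene lies on the minus strand at chr13:41309581-41487362 and has 2 groups of transcription starts in GENCODE. The outermost distal start is at position 41487362 and the proximal start is at 41359247, which is 128.1 kb further into the gene. Of the 50 regions, 7 lay in the upstream flank, 27 between the distal and proximal starts, 9 from the proximal start to the end of the gene and 7 in the downstream flank, where Smim13 and Elovl2 have their promoters. The lead region was centred 26.0 kb upstream of the distal start. It lay inside Gm32401, an antisense long noncoding RNA gene that starts at the distal Nedd9 promoter on the opposite strand, and it covered 2 of its annotated exons, of 88 and 71 bases, and 12 bases of a further one. A region was taken as accessible where its mean density was 5 or more in at least 1 population, in insertions per kilobase and per 1000000 after normalization. This held for 25 of the 50 regions and for 66252 of all 113820. Densities below have this unit. No region was left out of the tests for low values.

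Stretches of sequence are shown for the regions that the results below turn on, which are the lead region, its neighbour nearer to the gene, 2 intronic regions with opposite orders of the lung populations, and the bases before the distal Nedd9 start. All were read from GRCm38.p6 on the minus strand, 5′ to 3′ as Nedd9 is transcribed. For the regions, the 300 bases with the most motif matches are given. Capitals mark matches to 7 motif words searched on both strands, namely AGATAA for GATA factors, AACCACA for Runx, AGGTGTGA for T-box factors, TGANTCA for AP-1, TGGAAAA for NFAT, ATCAAAG or TTCAAAG for TCF and GGAAGT for ETS factors. The NFAT and ETS words share the letters GGAA.
Lead region, chr13:41513331-41513630: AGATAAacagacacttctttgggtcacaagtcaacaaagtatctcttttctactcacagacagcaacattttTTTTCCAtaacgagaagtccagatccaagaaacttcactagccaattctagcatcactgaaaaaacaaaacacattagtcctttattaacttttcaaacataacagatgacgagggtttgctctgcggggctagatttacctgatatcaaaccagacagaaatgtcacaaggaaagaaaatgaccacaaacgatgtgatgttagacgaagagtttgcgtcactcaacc
Upstream neighbour, chr13:41502671-41502970: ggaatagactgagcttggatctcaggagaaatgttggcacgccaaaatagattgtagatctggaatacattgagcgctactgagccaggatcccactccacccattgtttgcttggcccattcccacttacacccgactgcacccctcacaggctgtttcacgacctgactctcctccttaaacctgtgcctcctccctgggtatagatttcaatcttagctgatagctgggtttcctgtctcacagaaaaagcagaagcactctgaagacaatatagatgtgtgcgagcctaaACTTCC
Intronic region at 41469510, chr13:41469605-41469904: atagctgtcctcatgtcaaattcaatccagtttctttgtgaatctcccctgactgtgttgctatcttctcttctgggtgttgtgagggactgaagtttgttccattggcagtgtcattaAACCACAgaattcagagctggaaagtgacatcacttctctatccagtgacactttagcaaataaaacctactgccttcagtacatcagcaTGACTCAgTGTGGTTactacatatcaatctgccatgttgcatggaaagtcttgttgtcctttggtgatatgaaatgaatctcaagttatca
Intronic region at 41471470, chr13:41471546-41471845: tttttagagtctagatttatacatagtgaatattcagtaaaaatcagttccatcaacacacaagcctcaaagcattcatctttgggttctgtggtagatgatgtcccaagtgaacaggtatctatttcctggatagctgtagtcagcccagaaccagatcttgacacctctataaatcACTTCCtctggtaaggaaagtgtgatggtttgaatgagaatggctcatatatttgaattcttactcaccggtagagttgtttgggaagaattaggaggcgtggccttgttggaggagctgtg
Before the distal start, chr13:41487363-41487612: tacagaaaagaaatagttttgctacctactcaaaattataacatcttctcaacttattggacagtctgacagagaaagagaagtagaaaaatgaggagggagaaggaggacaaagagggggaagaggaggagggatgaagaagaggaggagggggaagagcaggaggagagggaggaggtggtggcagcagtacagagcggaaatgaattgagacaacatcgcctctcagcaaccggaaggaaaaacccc

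The lead region held 1 GATA and 1 NFAT word over its 608 bases, and none of the other 5 motifs. Of all regions, 29.6% held the GATA word and 15.9% the NFAT word anywhere in their length. Its GC content was 42.8%, and the median over all regions was 46.9%. The intronic region at chr13:41469510-41469999 held 2 Runx words and 1 AP-1 word. The Runx words began at bases 120 and 218 of the stretch shown, and the AP-1 word at base 210. Of all regions, 20.4% held a Runx word and 23.8% an AP-1 word. Its neighbour at chr13:41471470-41471922 held 1 ETS word, found in 41.8% of all regions. The 250 bases before the distal start matched none of the motifs. In the central 401 bases, the length of the shortest region, 11 of the 50 regions of the locus held the GATA word (22%, against 19.8% of all regions), 6 the Runx word (12% against 13.6%), 8 the AP-1 word (16% against 16%) and 3 the T-box word (6% against 2.2%). This last word lay in the regions at 41330812, 41345699 and 41381088. NFAT was found in 10% of the locus and 9.58% of all regions, TCF in 12% and 16.3%, and ETS in 34% and 29.8%. A match is a stretch of letters only, and no binding was measured here.

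The depth of the libraries was between 14005923 and 91681969 rebuilt insertions, which are lower bounds on the true counts. The labelled cell type was checked with promoter densities of marker genes, in the same unit. All 7 T cell markers (Cd3e, Cd3d, Cd3g, Cd4, Cd5, Cd28 and Lck) were at 8.08 or above in every library, and their sum was between 106.6 and 157.9. Only Cd4 among them separates CD4 from CD8 T cells, and its promoter was between 21 and 26.75. No region analysed here lay within 1 kb of the starts of Cd79a or Ms4a1 of B cells, Lyz2 or Csf1r of myeloid cells, Ncr1 of NK cells, Sftpc or Scgb1a1 of epithelium, Cdh5 of endothelium or Cd8a of CD8 T cells. The promoter of Pax5, a B cell factor, was at 35.4 and 37.4 in the LN libraries, between 7.7 and 21.8 in the lung IL-4+ libraries and at 16.5 and 20.7 in the lung IFNγ+ libraries. That of Klrb1c, which encodes NK1.1, was between 2.34 and 3.32 in LN, between 3.54 and 4.91 in lung IL-4+ and between 5.49 and 7.66 in lung IFNγ+ cells. Itgam, the gene of the myeloid marker CD11b, was between 1.79 and 2.83 in LN, between 0.898 and 2.89 in lung IL-4+ and between 5.39 and 7.77 in lung IFNγ+ cells. The sort had gated out cells stained for B220, NK1.1, CD8 and CD11b. Cd8b1 was between 6.61 and 7.31 in LN, between 2.95 and 5.57 in lung IL-4+ and at 3.94 and 4.09 in lung IFNγ+ cells. Over all libraries Fcgr3 was between 7.29 and 13.2, Epcam between 8.79 and 12.5 and Pecam1 between 13.7 and 24.7. The part of these markers in the results below was not tested. The libraries also fell into a class with a narrow spread of insertions per region (LN IL-4+ replicate 1, lung IL-4+ replicates 2 and 3) and one with a wide spread (the other 4). Both lung IFNγ+ libraries were wide. In comparisons with them, population and spread class therefore cannot be fully separated.

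The lead region held few insertions in LN IL-4+ cells and was accessible in both lung populations. Its density was 0.553 and 1.44 in the 2 LN libraries, 23.1, 18.3 and 14.9 in the 3 lung IL-4+ libraries and 11.1 and 15.2 in the 2 lung IFNγ+ libraries. Every lung library lay far above both LN libraries, and the lung populations overlapped each other. On the log2 scale the means were -0.16 ± 0.98 (SD, n = 2) in LN, 4.21 ± 0.32 (SD, n = 3) in lung IL-4+ and 3.70 ± 0.32 (SD, n = 2) in lung IFNγ+ cells. The lung IL-4+ mean was 4.37 ± 0.41 (SE) above the LN mean, and the lung IFNγ+ mean was 3.86 ± 0.45 (SE) above it. In the latter comparison 73 regions of the genome, the lead region included, were higher in lung IFNγ+ cells by as much or more. The LN libraries in it also chose the lead region, so this rank is a description and no test. Lung IFNγ+ cells were 0.50 ± 0.41 (SE) below lung IL-4+ cells on the log2 scale, which is within the spread of the libraries. In bulk libraries, more cells with an open region and a more open region in each cell cannot be told apart.

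The insertions behind these densities were few in LN cells. Rebuilt counts were 23 and 36 insertions in the LN libraries, 590, 277 and 143 in the lung IL-4+ libraries and 345 and 885 in the lung IFNγ+ libraries. Per 1000000 rebuilt insertions, without the normalization of the deposited table, this was 0.976 and 0.563 in LN, between 10.2 and 15.1 in lung IL-4+ and 6.43 and 9.65 in lung IFNγ+ cells. The order of the populations did not rest on that normalization. The overlap of the lung populations did, as every lung IL-4+ library lay above both lung IFNγ+ libraries on the rebuilt scale. Within the narrow spread class the difference between lung IL-4+ and LN IL-4+ cells was 4.90 on the log2 scale (2 libraries against 1), and within the wide class it was 4.00 (1 against 1). Also within the wide class, lung IFNγ+ minus LN IL-4+ was 3.17 and lung IFNγ+ minus lung IL-4+ was -0.83 (each 2 against 1). For lung IL-4+ against LN IL-4+ cells, single LN libraries were also left out. Leaving out LN replicate 1 gave 3.68, and leaving out LN replicate 2 gave 5.06.

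**Figure D1:**
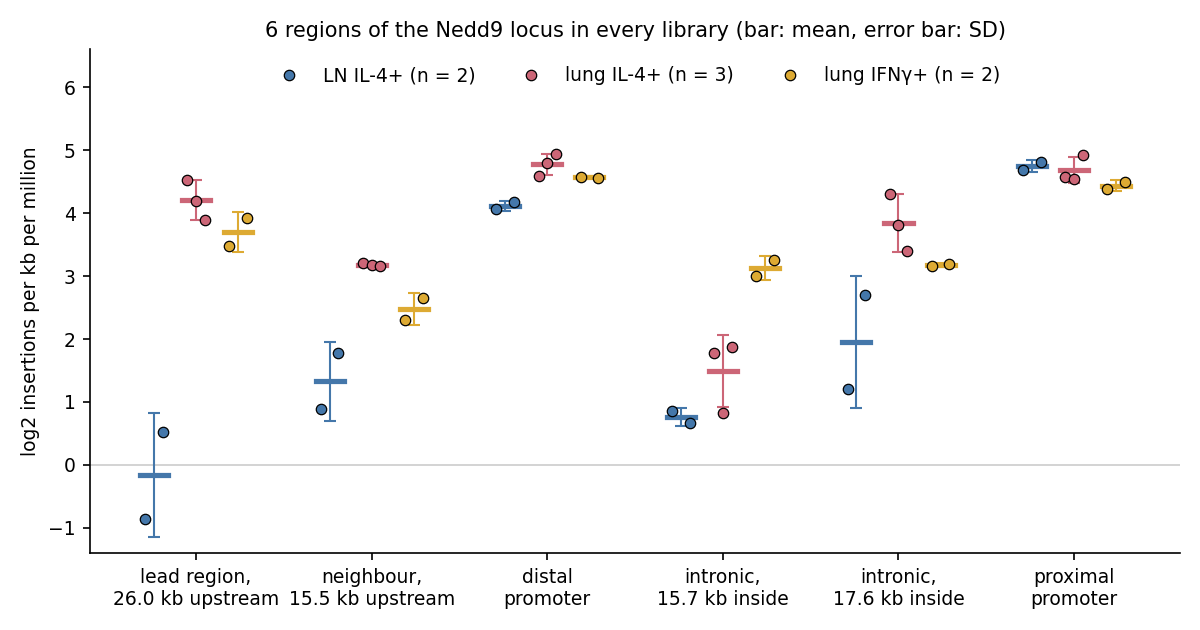
Log2 density (normalized insertions per kilobase and per 1000000, y axis) of 6 regions of the Nedd9 locus in each library, with the mean as a bar and the SD as an error bar for the 3 populations. The LN libraries lie far below all lung libraries at the lead region, at -0.85 and 0.53, while the proximal promoter lies between 4.38 and 4.93 in all 7 libraries.

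The regions beside the lead region had smaller differences between lung IL-4+ and LN cells. The selection fixed this, since the lead region had the largest such difference of all regions. The nearest region on the side of the gene, chr13:41502506-41503311, began 15.1 kb upstream of the distal start and lay 9.8 kb from the lead region. Its density was 1.84 and 3.42 in LN, between 8.89 and 9.25 in the 3 lung IL-4+ libraries and 4.93 and 6.29 in lung IFNγ+ cells. The 3 populations did not overlap there, with lung IL-4+ cells highest. Lung IL-4+ cells were 1.85 ± 0.35 (SE) above LN cells on the log2 scale. Lung IFNγ+ cells were 1.15 ± 0.38 (SE) above LN cells (limma, adjusted p = 0.132) and 0.70 ± 0.35 (SE) below lung IL-4+ cells (limma, adjusted p = 0.369). Closer to the gene, the region at chr13:41488300-41489070, within 1 kb of the distal start, had log2 densities of 1.53 and 0.47 in LN, 1.12, 2.18 and 1.79 in lung IL-4+ and 1.33 and 1.58 in lung IFNγ+ cells, and all populations overlapped. On the far side, the region at chr13:41521270-41521670, which lay 7.6 kb from the lead region, ranged from 0.59 to 1.05 in LN, from 0.97 to 2.19 in lung IL-4+ and from 1.27 to 2.06 in lung IFNγ+ cells. The next one, at chr13:41571963-41572569, was open in every library at log2 densities between 2.88 and 3.64.

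At the distal promoter of Nedd9 the lung and LN libraries did not overlap, while at the proximal promoter the lung IL-4+ and LN libraries did. The distal and proximal promoters were not tested against each other. The region over the distal starts, chr13:41484785-41487498, had densities of 16.7 and 18.0 in LN, 24.1, 27.8 and 30.5 in lung IL-4+ and 23.9 and 23.6 in lung IFNγ+ cells. Both lung populations lay above LN in every library. The difference on the log2 scale was 0.66 ± 0.18 (SE) for lung IL-4+ and 0.46 ± 0.20 (SE) for lung IFNγ+ cells, the latter not past the test (limma, adjusted p = 0.256). This region also covers the start of Gm32401, and ATAC-seq insertions have no strand, so the 2 promoters cannot be told apart. The region over the proximal start, chr13:41356267-41359323, had densities of 25.6 and 28.1 in LN, 23.8, 23.3 and 30.4 in lung IL-4+ and 20.8 and 22.6 in lung IFNγ+ cells. Lung IFNγ+ cells were lowest here on the deposited scale. They were 0.31 ± 0.21 (SE) below LN cells on the log2 scale (limma, adjusted p = 0.462). They were 0.25 ± 0.19 (SE) below lung IL-4+ cells (limma, adjusted p = 0.539). On the scale of rebuilt insertions given for the lead region, they were not lowest, at 74.5 and 75.2. LN libraries stood at 69.3 and 86.9 on that scale, and lung IL-4+ libraries at 80.8, 60.2 and 76.5. A small region next to the proximal promoter, chr13:41360281-41360681, had densities from 0.809 to 4.14 over the 7 libraries.

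**Figure D2:**
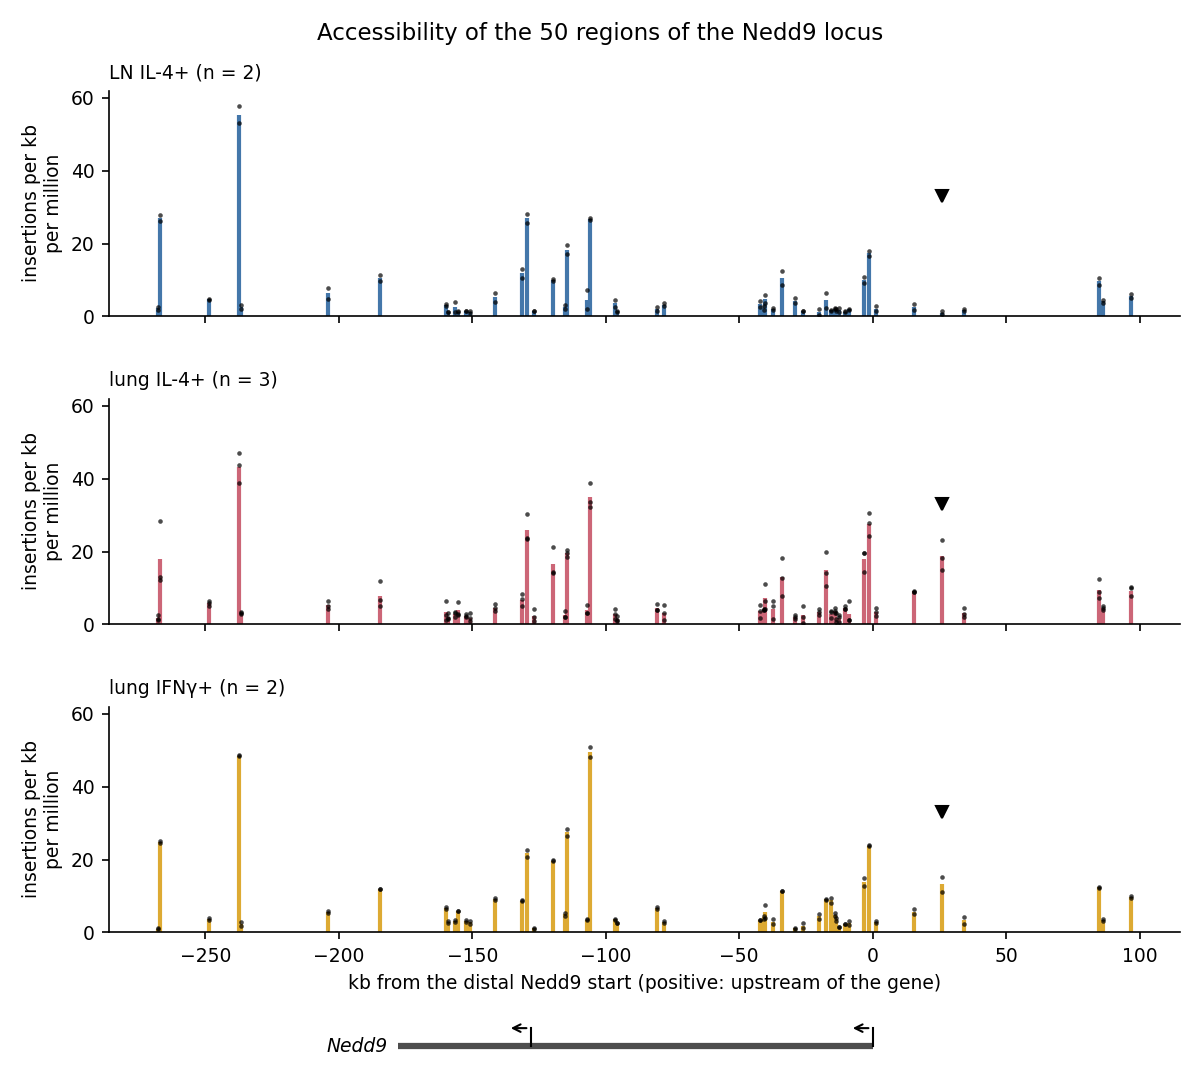
Density of the 50 regions (bars: population mean, points: libraries, in normalized insertions per kilobase and per 1000000) against the distance of each region from the distal Nedd9 start in kb, with the gene as a grey bar and arrows at its 2 start groups. The triangle marks the lead region at 26.0 kb upstream, where the LN mean is 0.999, the lung IL-4+ mean 18.8 and the lung IFNγ+ mean 13.2.

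Within the gene, the region with the highest mean density was intronic, at chr13:41381088-41382275, which is at -105.7 kb from the distal start. It was the densest of the locus after the Smim13 promoter. Its densities were 26.6 and 26.9 in LN, 33.6, 38.9 and 32.1 in lung IL-4+ and 51.0 and 48.3 in lung IFNγ+ cells. The 3 populations did not overlap on the deposited scale, with LN lowest and lung IFNγ+ highest. On the scale of rebuilt insertions given for the lead region, LN replicate 2 (37.2) lay above lung IL-4+ replicate 3 (33.8). Lung IFNγ+ cells were still highest on that scale, at 71.7 and 66.8. Lung IFNγ+ cells were 0.89 ± 0.18 (SE) above LN cells on the log2 scale (limma, adjusted p = 0.022), which passed the adjusted p of 0.05 but not the 3-fold threshold of a call. They were 0.51 ± 0.16 (SE) above lung IL-4+ cells (limma, adjusted p = 0.205). The region held 1 Runx word, 1 T-box word and 2 ETS words.

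A pair of intronic regions near the distal start had opposite orders in the lung populations. They lay 1.47 kb apart, and were put side by side after their values were seen. The first, chr13:41469510-41469999, had log2 densities of 1.21 and 2.70 in LN, 4.31, 3.81 and 3.39 in lung IL-4+ and 3.16 and 3.20 in lung IFNγ+ cells. The second, chr13:41471470-41471922, had 0.86 and 0.66 in LN, 1.78, 0.83 and 1.87 in lung IL-4+ and 3.00 and 3.26 in lung IFNγ+ cells. At the first region every lung IL-4+ library lay above both lung IFNγ+ libraries, and at the second every one lay below them. Lung IFNγ+ minus lung IL-4+ was -0.66 ± 0.42 (SE) at the first (limma, adjusted p = 0.464) and 1.64 ± 0.44 (SE) at the second (limma, adjusted p = 0.142), and neither passed the test. The second region minus the first was -2.54, -2.99 and -1.52 in the lung IL-4+ libraries and -0.16 and 0.06 in the lung IFNγ+ libraries. Per 1000000 rebuilt insertions, the second region stood at 1.20, 1.81 and 2.93 in lung IL-4+ and at 3.02 and 3.87 in lung IFNγ+ cells, a smaller separation than on the deposited scale.

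A region was called where limma, run over all 113820 regions, gave an adjusted p under 0.05 with a difference of 3-fold or more. For lung IFNγ+ against LN IL-4+ cells, 4 of the 50 regions (8%) were higher in lung IFNγ+ cells, where 2.17% of all regions were, and 0 were lower, where 0.862% of all regions were. The LN libraries of this comparison are the ones that also chose the locus. One of the 4 was the lead region, which the selection favoured, and the count without it was 3. These were intronic: the region at 41471470 described above, higher by 2.37 ± 0.48 (SE) on the log2 scale (adjusted p = 0.0244), that at chr13:41331611-41332116, by 2.17 ± 0.52 (SE, adjusted p = 0.045), and that at chr13:41406358-41406832, by 1.82 ± 0.44 (SE, adjusted p = 0.048). The region at 41331611 had log2 densities of 0.33 and 0.42 in LN, 2.62, 1.49 and 1.41 in lung IL-4+ and 2.55 and 2.54 in lung IFNγ+ cells. That at 41406358 had 0.46 and 1.41 in LN, 2.45, 1.98 and 2.02 in lung IL-4+ and 2.71 and 2.79 in lung IFNγ+ cells. In both, the LN libraries were below every lung library.

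The 4 calls depended on single libraries. Without lung IFNγ+ replicate 1 the count was 1, without lung IFNγ+ replicate 2 it was 0, and leaving out LN replicate 1, or the second lung IL-4+ replicate, gave 2. None of the 4 changed sign under any alternative run. Without a fold threshold the count was 5, where 4.19% of all regions passed. At an unadjusted p below 0.05 with the same fold, 5 were higher, where 4.4% of all regions were, and 1 was lower, where 2.92% were. The lower one was at chr13:41457979-41458379, where lung IFNγ+ minus LN was -1.90 ± 0.57 (SE).

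**Figure D3:**
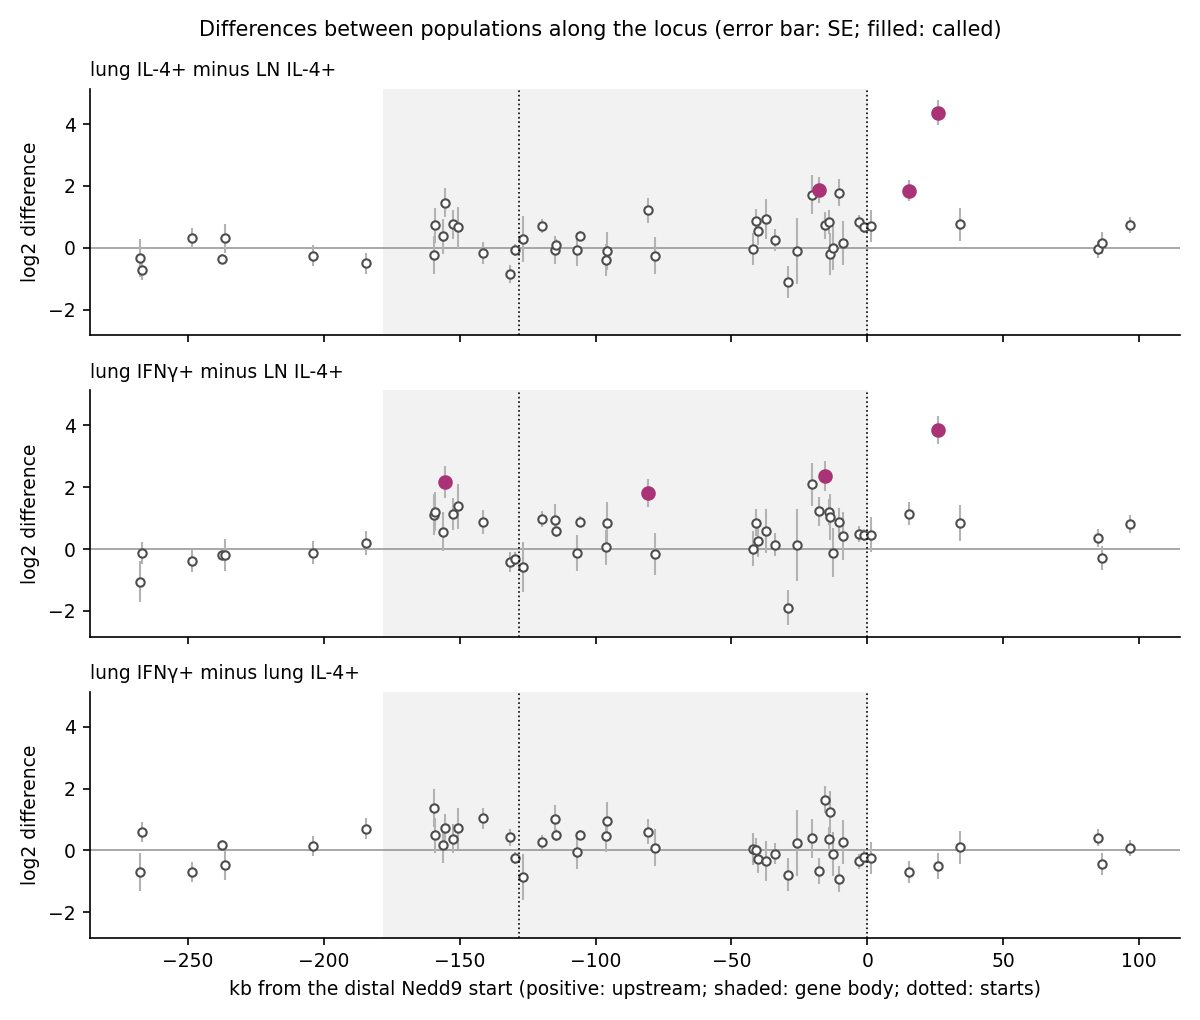
Log2 difference between populations (y axis, error bar SE from limma) for each of the 50 regions against the distance from the distal Nedd9 start in kb, with the gene body shaded and the starts dotted. Filled points passed an adjusted p below 0.05 and a fold of 3, which were 3 regions in lung IL-4+ minus LN, 4 in lung IFNγ+ minus LN and 0 in lung IFNγ+ minus lung IL-4+.

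Between the 2 lung populations limma called 0 of the 50 regions, where 0.387% of all regions were higher and 0.108% lower in lung IFNγ+ cells. At an unadjusted p below 0.05, 5 of the 50 differed (10%), where 14.8% of all regions did. Voom on rebuilt counts also called 0, where it called 0.354% of all regions higher in lung IFNγ+ cells. The differences ranged from -0.93 to 1.64 on the log2 scale with a median of 0.16, and the median over all regions was 0.01. With 1 weight per library, limma called 2 regions higher in lung IFNγ+ cells, those at 41471470 and 41473428, and with these weights 3.02% of all regions were called higher. In lung IL-4+ against LN IL-4+ cells, the comparison that chose the locus, 3 of the 50 regions met the thresholds as higher in lung IL-4+ cells, where 1.05% of all regions did, and 0 as lower, where 0.695% did. These counts describe the selection and are no test. The 3 were the lead region, which chose the locus, its neighbour at 41502506 and the intronic region at 41469510, the last of these higher by 1.88 ± 0.42 (SE). The count was 1 without lung IL-4+ replicate 2 or 3 or without either lung IFNγ+ replicate. In the gene, the next largest difference was at chr13:41476491-41477176, over the gene model Gm48569, with 1.79 ± 0.43 (SE).

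The libraries of lung IFNγ+ and LN cells were apart, with no overlap, in most of the 50 regions. In 29 regions (58%) lung IFNγ+ cells were higher, where 26.5% of all regions were, and in 9 regions (18%) they were lower, where 27.2% were. Of the 29, 17 lay between the starts, 6 between the proximal start and the gene end, 5 upstream and 1 downstream. Of the 9, 4 lay downstream. Between lung IFNγ+ and lung IL-4+ cells, 11 regions (22%) were higher without overlap, where 21.2% of all regions were, and 10 (20%) were lower, where 19.4% were. In the comparison that chose the locus, 17 (34%) were higher in lung IL-4+ cells, where 13.6% of all regions were, and 3 (6%) were lower, where 14.3% were. Regions of 1 locus share their libraries and are not independent.

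**Figure D4:**
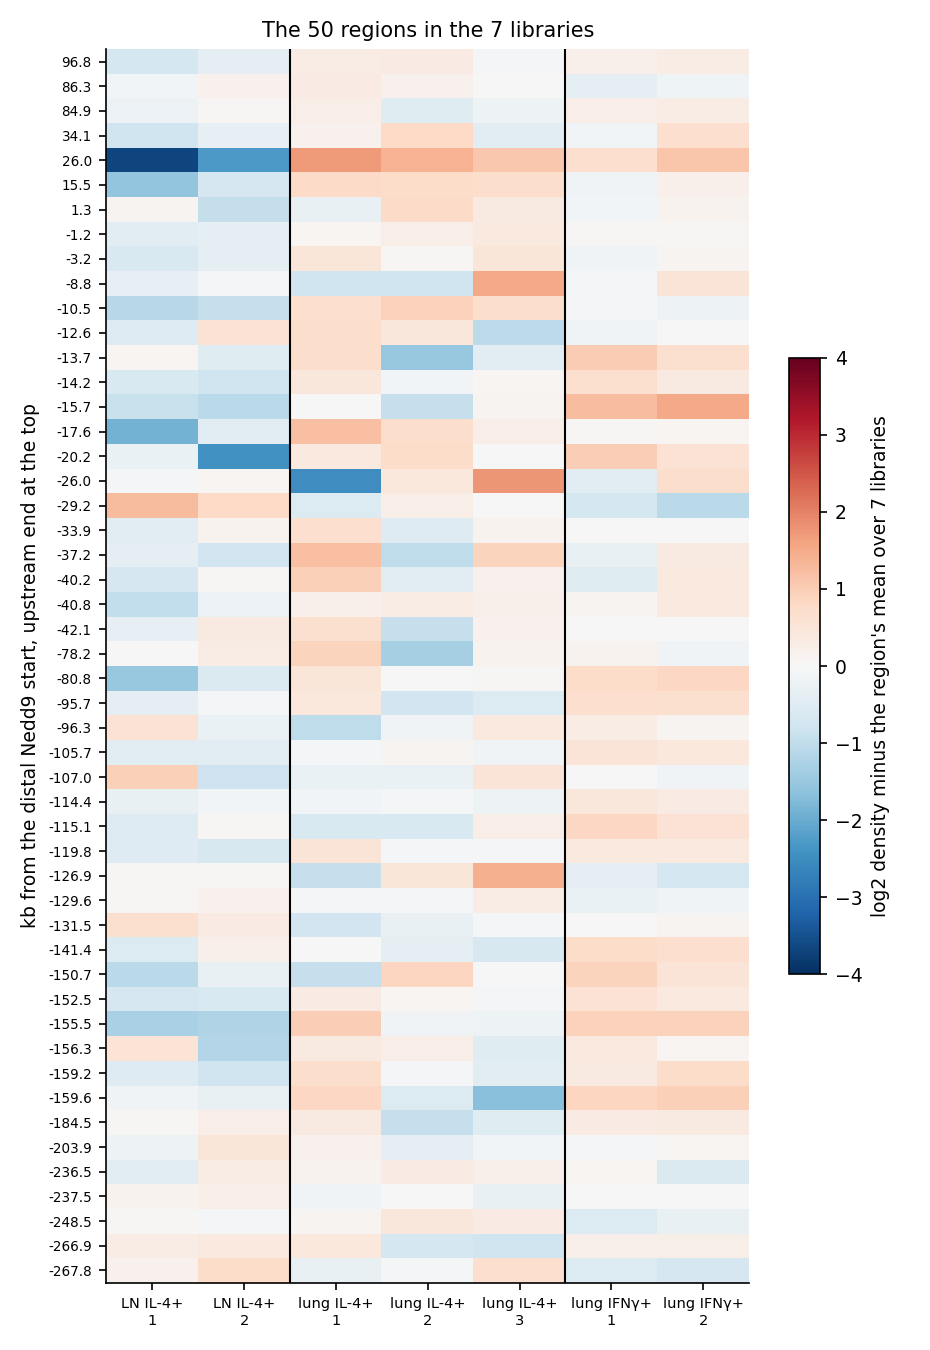
Log2 density of each of the 50 regions (rows, labelled by kb from the distal Nedd9 start, upstream end at the top) in each of the 7 libraries (columns), less the mean of the region over the libraries. The row at 26.0 kb, the lead region, is blue in both LN columns and red in all lung columns, and the row at -15.7 kb is red in both lung IFNγ+ columns.

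Summed over all 50 regions, normalized insertions per 1000000 were 354.8 and 384.7 in LN, 446, 414.3 and 433.5 in lung IL-4+ and 438.5 and 448 in lung IFNγ+ cells. Both lung populations lay above LN in every library and overlapped each other. The difference on the log2 scale was 0.26 ± 0.06 (SE) between lung IFNγ+ and LN cells (exact two-sided permutation test over 6 assignments, p = 0.333, the smallest that 2 against 2 libraries allow) and 0.04 ± 0.03 (SE) between lung IFNγ+ and lung IL-4+ cells (exact two-sided permutation test over 10 assignments, p = 0.4, where 0.1 is the smallest possible). The difference between lung IL-4+ and LN cells was 0.22 ± 0.07 (SE). The lead region gave 0.0948% and 0.228% of the sum in LN, between 2.09% and 3.15% in lung IL-4+ and 1.55% and 2.06% in lung IFNγ+ cells, and without it lung IL-4+ cells were still 0.19 ± 0.06 (SE) above LN cells.

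On the deposited scale, the parts of the locus differed in their order of the populations. The 7 upstream regions summed to 16.3 and 19.9 in LN, 43.7, 40.1 and 34.3 in lung IL-4+ and 31.6 and 37.2 in lung IFNγ+ cells. The 27 regions between the starts summed to 139.6 and 150.2 in LN, 219, 202.5 and 218.4 in lung IL-4+ and 224.8 and 223.3 in lung IFNγ+ cells. In both parts every lung library was above both LN libraries, with log2 differences from LN of 1.12 ± 0.18 and 0.56 ± 0.06 (SE) in lung IL-4+ and 0.93 ± 0.18 and 0.63 ± 0.05 (SE) in lung IFNγ+ cells. From the proximal start to the end of the gene, the sum was 95.6 and 101.3 in LN, 90.2, 85.9 and 105.9 in lung IL-4+ and 86.2 and 91.4 in lung IFNγ+ cells. The downstream flank, which holds the promoters of the neighbouring genes, was lower in the lung, with 103.3 and 113.4 in LN, 93.2, 85.9 and 74.8 in lung IL-4+ and 96.0 and 96.2 in lung IFNγ+ cells. The Smim13 promoter, chr13:41249173-41250613, made up most of that sum and had the highest mean density of the locus, at 53.2 and 57.7 in LN, 43.7, 46.9 and 38.8 in lung IL-4+ and 48.7 and 48.4 in lung IFNγ+ cells. The parts were drawn from the gene model after earlier results were known, and no p-value is given for them. At the edges of the window, the outermost region inside it upstream had mean log2 densities of 2.46, 3.20 and 3.27 in LN, lung IL-4+ and lung IFNγ+ cells and the first one beyond it 3.30, 2.69 and 3.35. Downstream they were 1.10, 0.76 and 0.05 inside and 1.83, 1.63 and 1.28 outside.

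**Figure D5:**
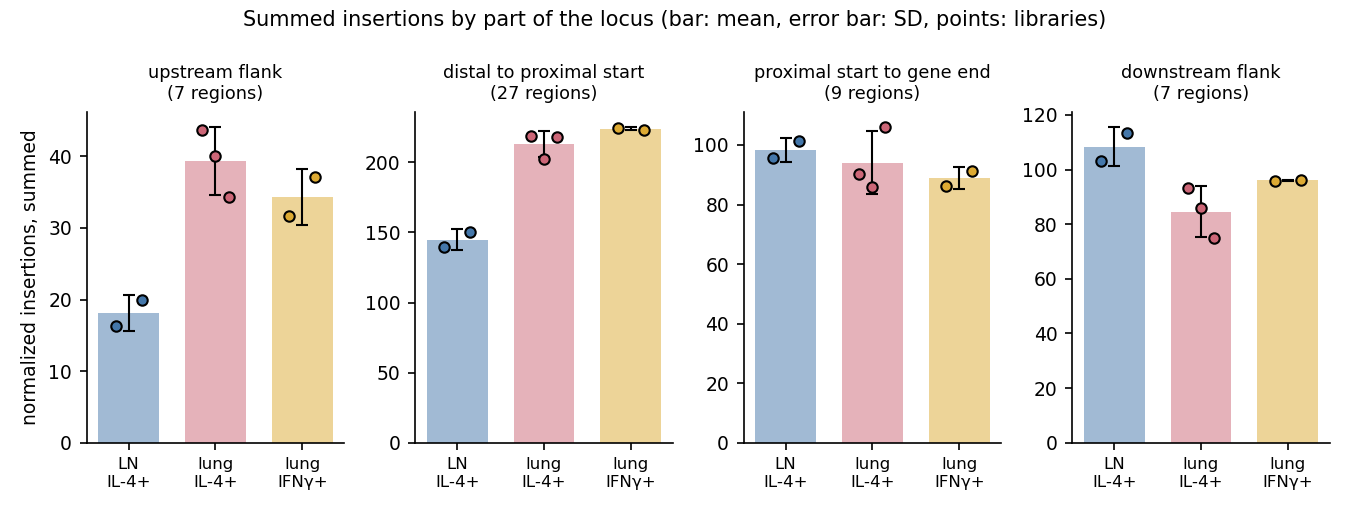
Normalized insertions per 1000000 summed over the regions of each part of the locus (y axis, starting at 0, with its own scale in each panel), as the mean (bar), SD (error bar) and single libraries (points) of the 3 populations. Upstream of the gene the LN libraries sum to 16.3 and 19.9 and all lung libraries to more than 31, whereas from the proximal start to the gene end the lung IL-4+ libraries overlap those of LN.

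Regions that behaved most like the lead region were found elsewhere in the genome. Likeness was the Euclidean distance between the 7 log2 densities of 2 regions, each less its own mean, over 66251 other accessible regions, whose median distance was 5.25. The closest was at chr5:75826302-75826896, between genes and 151.9 kb from the start of Kdr, with a distance of 1.17. It was followed by chr19:53405693-53406206 (1.25), 15.4 kb from the start of Smndc1, and chr8:10480789-10481250 (1.35) in Myo16. The fourth, chr1:40448290-40448748 (1.42), lay in Il1rl1, the gene of the IL-33 receptor ST2, and the fifth, chr13:101632748-101633164 (1.45), was 59.4 kb from the start of Pik3r1. The region in Il1rl1 had mean log2 densities of -0.92 in LN, 2.38 in lung IL-4+ and 2.43 in lung IFNγ+ cells. Within the Nedd9 locus the closest was the intronic region at 41469510 with a distance of 3.07, and 739 accessible regions of the genome were at least as close to the lead region as that. The neighbour at 41502506 followed with 3.16. The ranking used the same libraries that chose the lead region and describes resemblance only.

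Genes that work with Nedd9, mainly in adhesion signalling, were examined as a list of 28, taking all 615 regions within 10 kb of them. The list also holds Aurka, the gene of the mitotic kinase Aurora A, which had 0 calls. Its members are called the adhesion genes below. Between lung IFNγ+ and LN cells, 11 regions (1.79%, against 2.17% of all regions) at 8 genes were higher in lung IFNγ+ cells and 2 (0.325%, against 0.862%) were lower. The median difference was -0.21 on the log2 scale, and -0.03 over all regions. Among the Cas family, to which Nedd9 belongs, Cass4 had 3 higher regions, and Bcar1 and Efs had 0 calls. The largest difference of the 3 was at chr2:172407477-172407914, where the mean log2 density was 2.33 ± 0.17 (SD, n = 2) in LN, 3.23 ± 0.13 (SD, n = 3) in lung IL-4+ and 4.87 ± 0.22 (SD, n = 2) in lung IFNγ+ cells. Lung IFNγ+ cells were above LN cells by 2.54 ± 0.26 (SE, limma, adjusted p = 0.00158) and above lung IL-4+ cells by 1.64 ± 0.24 (SE, limma, adjusted p = 0.0219). Near Zyx, which encodes the adhesion plaque protein zyxin, 1 region was higher in lung IFNγ+ than in LN cells by 3.12 ± 0.40 (SE, limma, adjusted p = 0.00355). Near Src, a kinase of Cas proteins, the region at chr2:157412111-157412560 stood above LN cells in lung IL-4+ cells by 2.54 ± 0.30 (SE, limma, adjusted p = 0.00397) and lung IFNγ+ minus lung IL-4+ was -1.74 ± 0.30 (SE, limma, adjusted p = 0.0364).

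Between lung IL-4+ and LN cells, 7 of the 615 regions (1.14%, against 1.05% of all) were higher and 3 (0.488%, against 0.695%) were lower in the lung. Of the 7, 4 lay at Bcar3, an adaptor that binds Cas proteins, and the largest of these was higher by 2.69 ± 0.37 (SE, limma, adjusted p = 0.00664). The other genes with a higher region were Cass4, Src and the GTPase gene Rap1b, and those with a lower region were Ptk2b, Rapgef1 and the integrin gene Itgb1. Between the lung populations, 2 of the 615 regions (0.325%, against 0.387% of all) were higher in lung IFNγ+ cells, at Cass4 and Zyx, and 1 (0.163%, against 0.108%) was lower, at Src. Besides Cass4 and Zyx, the genes with a region higher in lung IFNγ+ than in LN cells were the kinase genes Lck, Ptk2b and Src, Bcar3, Rap1a and the integrin gene Itgb2, and those with a lower region were Ptk2b and Rapgef1. These counts also rested on single libraries. In lung IFNγ+ against LN cells the 13 calls became 0 without lung IFNγ+ replicate 1, 2 without lung IFNγ+ replicate 2 and 32 without LN replicate 2. In lung IL-4+ against LN cells the 10 calls became 1 without the second lung IL-4+ library and 5 without the third or without either lung IFNγ+ library. Between the lung populations the 3 calls became 0 when the second or the third lung IL-4+ library, or either lung IFNγ+ library, was left out, and 6 when the first lung IL-4+ library or either LN library was.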

How the data were processed

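ATAC-seq of 50000 sorted CD4+ T cells per library was analysed from the table that the authors deposited. The authors mapped reads to GRCm38 with Bowtie2 2.3.2, called peaks per replicate with MACS2 2.1.1, merged them, counted insertions, normalized them with limma voom 3.38.3 and divided by region length. The deposited values are log2 densities in normalized insertions per kilobase and per 1000000. Without region length their sorted values nearly coincide between libraries, as after quantile normalization. Counts were rebuilt from ties, to 8 decimals, as the number of lower distinct values in a library, which is a lower bound.

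All 113820 regions and all 7 libraries were fitted with limma 3.58.1 in R 4.3.3 (lmFit, eBayes with trend, 1 mean per population, Benjamini-Hochberg over regions within a comparison), with no pseudocount and no filter. The fit was tested on simulated data. Sums were tested by exact permutation. Regions were annotated with GENCODE release M21, and promoters lie within 1 kb of a start.

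The regions named in the text are the lead region, its 2 neighbours on each side, regions within 1 kb of a Nedd9 start, called regions, the 3 densest regions, the regions most like the lead region and called regions at the adhesion genes. Those at 41457979, 41473428 and 41476491, the T-box matches and the edges of the window were named after their values were seen. The members, gene lists, motif words and tests were chosen with earlier results of these data known. Alternatives were a filter on low regions, a pseudocount of 1, other normalizations, other designs, thresholds and flanks, a whole-region motif search and each library left out. A marker gene and a stretch of sequence are not reported here.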

Additional observations from a re-analysis of the deposited data

How the results depend on the processing

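The direction of each called region of the Nedd9 locus and of each locus sum held under all alternatives run, and the number of calls did not. The calls in lung IFNγ+ against LN IL-4+ cells, 4 as reported, were 2 with a pseudocount of 1, 2 with voom on rebuilt counts and 1 with a replicate block, and between 0 and 5 with 1 library left out. Those in lung IL-4+ against LN IL-4+ cells, 3 as reported, were 1 with only 2 populations in the fit, 1 in the gene body alone and 0 with a replicate block, and between 1 and 3 with 1 library left out. Between the lung populations, weights per library gave 2 calls, and leaving out libraries gave 0 throughout. Deviations of same-numbered libraries correlated between -0.54 and 0.06, which cannot show whether replicate numbers pair the libraries. The IFNγ+ libraries came from another reporter line, and same-numbered LN and lung IL-4+ libraries fell in opposite spread classes. The lead region differed by 3.32 on the log2 scale with a pseudocount of 1 and by 3.68 to 5.06 with 1 library left out.

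The locus sum of lung IFNγ+ against LN IL-4+ cells, 0.26, was 0.40 with 50 kb flanks, 0.36 in the gene body alone and 0.68 without regions at starts of other genes, and 0.20 to 0.32 with 1 library left out. That of lung IL-4+ against LN IL-4+ cells, 0.22, was 0.39, 0.34 and 0.50 under the same choices and 0.16 to 0.28 with 1 library left out. Between the lung populations it was 0.18 without regions at starts of other genes, which also removes the regions over both Nedd9 promoters, and 0.01 to 0.06 with 1 library left out. At the adhesion genes the 13 calls in lung IFNγ+ against LN IL-4+ cells were 4 with a replicate block, 24 with 100 kb flanks and 0 to 32 with 1 library left out. The 10 in lung IL-4+ against LN IL-4+ cells were 0 with the block, 18 at a fold of 2, 19 with 100 kb flanks and 1 to 10 with 1 library left out. The 3 between the lung populations were 0 with the block, 5 with 100 kb flanks and 0 to 6 with 1 library left out. The causes were not tested. A whole-region motif search raised the shares over all regions for every motif and at the locus for every motif but the T-box word, which stayed at 6%. Groups of 2 or 3 libraries, and as few as 23 rebuilt insertions in the lead region, limit the precision.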
